A study of Mus musculus with 16 samples.

Results

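The IL-1 and IL-18 genes examined here were 9 of the 24421 gene symbols counted in this series. They were taken by name, not by a measured value, though with earlier results of these data known. They were the ligands *Il1a*, *Il1b* and *Il18*, the antagonist *Il1rn*, the binding protein *Il18bp*, and the receptor chains *Il1r1*, *Il1r2*, *Il1rap* and *Il18rap*. They were followed in myeloid-derived suppressor cells (MDSCs) sorted from the spleens of mice carrying subcutaneous B16.F10 tumors, a transplantable C57BL/6 melanoma line. The 4 groups were M-MDSCs (monocytic, CD11b-high Ly6C+Ly6G-) and G-MDSCs (granulocytic, CD11b-high Ly6C-Ly6G+) from WT C57BL/6J mice and from *Nlrp3-/-* mice, which carry an EGFP cassette at the start codon in every cell and were kept on a C57BL/6 background. Each group held 4 libraries from 4 mice, aged 6 to 12 weeks by the methods, and both subsets of a mouse were sequenced, so that 8 mice gave 16 libraries. All mice bore tumors. Tumor-free mice and tumor-infiltrating cells were not analysed here.

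IL-1β and IL-18 are made as inactive precursors that caspase-1 cleaves inside inflammasomes such as the one built on NLRP3, and a gene expression measurement sees the mRNA of the precursor and not the cleaved cytokine. IL-1α and IL-1β signal through IL-1R1 with the accessory chain IL-1RAP. The receptor antagonist encoded by *Il1rn* occupies IL-1R1 without signaling, IL-1R2 is a decoy that binds IL-1 without signaling, and IL-18BP neutralizes IL-18. The IL-18 receptor pairs the binding chain IL-18R1 with the accessory chain IL-18RAP. Monocytes and neutrophils are well known sources of IL-1β, and neutrophils of IL-1R2.

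Reads were taken from the 3′ ends of transcripts, counted by strand, and are given as CPM, the count of a gene relative to all counts of its library brought to a fixed total, after scaling by the trimmed mean of M values over all 16 libraries. Libraries held 2295967 to 6079866 counts, and 3 counts, the smallest amount read as detected, equalled 0.493 to 1.31 CPM. *Nlrp3*, the targeted gene, lay between 40.7 and 88.9 CPM in WT and between 0.514 and 1.88 CPM in *Nlrp3-/-* M-MDSCs. In G-MDSCs it lay between 252 and 331 CPM in the WT group, and the knockout group held 5.51 to 13.6 CPM, so all 16 libraries matched their labels. The reads lie away from the altered exon and do not show the allele itself. Monocyte markers summed to 5050 to 9352 CPM in M-MDSCs and 954 to 1751 CPM in G-MDSCs, where the genotypes did not overlap (954 to 1318 CPM in WT and 1321 to 1751 CPM in *Nlrp3-/-* libraries). The 7 neutrophil markers used summed to 1142 to 6618 CPM in M-MDSCs and 108967 to 168915 CPM in G-MDSCs. *Ly6g*, the gene of the sorting antigen of G-MDSCs, was not analysed here. One library stood apart: the M-MDSC WT replicate 2 summed to 6618 CPM for neutrophil markers where the other 7 M-MDSC libraries lay between 1142 and 2180 CPM, and it held the highest *Il1b* and *Il1r2* among M-MDSCs. Of 6 neutrophil markers tested in M-MDSCs, 2 were called higher in *Nlrp3-/-* mice, *Retnlg* and *Mmp9*. Markers of red pulp macrophages were higher in the *Nlrp3-/-* mice in both subsets, with sums of 157 to 168 CPM against 265 to 408 CPM in M-MDSCs and of 469 to 784 CPM against 1000 to 1251 CPM in G-MDSCs. Of the 10 markers, none was at 0 in any group and 6 of 9 tested were called higher in each subset. NK cell markers followed, with sums of 57.6 to 108 CPM against 134 to 205 CPM in M-MDSCs and of 39.9 to 69.8 CPM against 85.4 to 126 CPM in G-MDSCs. Of the 11 NK markers, *Klra4* and *Klra8* were at 0 in every group, and 1 of 8 tested in M-MDSCs and 2 of 5 in G-MDSCs were called higher. Melanoma markers summed to at most 1.45 CPM.

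**Figure D1:**
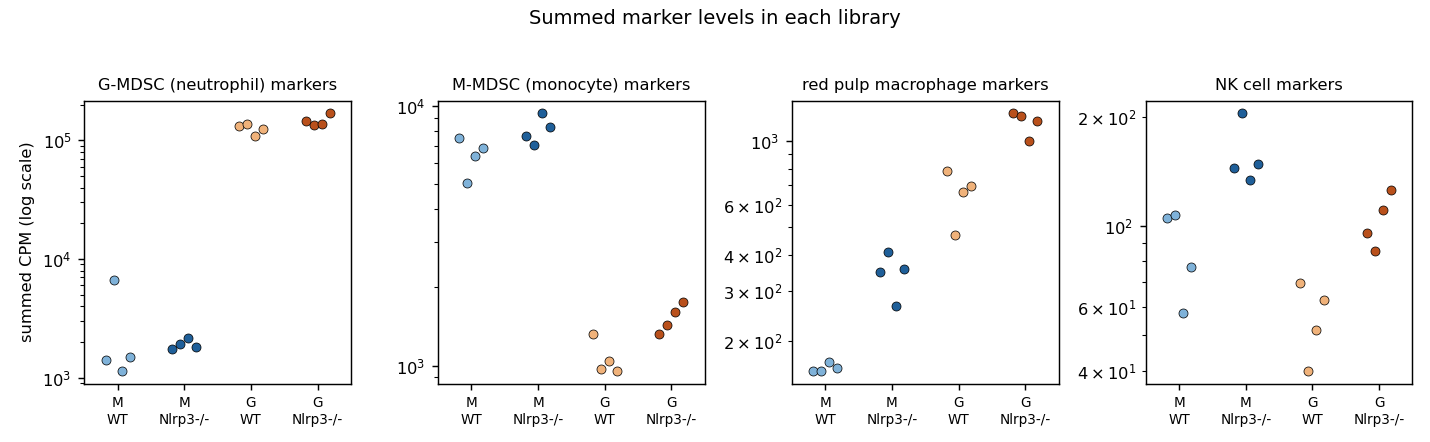
Summed CPM (log scale) of 4 fixed marker lists in each library, with 4 points per group. Neutrophil and monocyte markers separated the subsets, the M-MDSC WT replicate 2 stood at 6618 CPM for neutrophil markers, and red pulp macrophage and NK cell markers were higher in *Nlrp3-/-* libraries of both subsets.

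The upstream windows of 5 genes are shown: *Il1b*, *Il1rn*, *Il1r2* and *Il18rap*, a ligand, an antagonist, a decoy and an accessory receptor among the 6 genes higher in G-MDSCs, and *Il18*, which was not. All 9 genes were matched by symbol in RefSeq (GRCm38.p6), and each window is the 250 bases before the listed start nearest to the gene's annotated 5′ end, read 5′ to 3′ on the gene's strand. The RefSeq starts of *Il1r2* and of *Il18bp*, named below, lie well inside the spans that GENCODE gives these genes. *Il1rn* had 3 listed starts, and only the nearest was searched. Capitals mark matches, on either strand, to the letters of 5 motifs: the TATA box, AP-1, the PU.1 core, C/EBP and the first part of an NF-kB element. No matches overlapped. The windows lie on mm10 at chr2:129371140-129371389 for *Il1b* (minus strand), chr2:24336610-24336859 for *Il1rn*, chr1:40085843-40086092 for *Il1r2*, chr1:40515112-40515361 for *Il18rap* and chr9:50554450-50554699 for *Il18* (plus strand for these 4).
Il1b: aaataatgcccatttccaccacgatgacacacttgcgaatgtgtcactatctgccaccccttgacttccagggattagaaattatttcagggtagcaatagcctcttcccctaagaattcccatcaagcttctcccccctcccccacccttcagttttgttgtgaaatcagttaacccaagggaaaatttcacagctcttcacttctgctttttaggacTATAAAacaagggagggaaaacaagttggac
Il1rn: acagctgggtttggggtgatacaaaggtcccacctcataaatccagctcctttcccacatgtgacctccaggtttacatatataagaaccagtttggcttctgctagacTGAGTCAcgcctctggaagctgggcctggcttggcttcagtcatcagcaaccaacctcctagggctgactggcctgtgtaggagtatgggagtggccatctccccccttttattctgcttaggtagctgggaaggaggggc
Il1r2: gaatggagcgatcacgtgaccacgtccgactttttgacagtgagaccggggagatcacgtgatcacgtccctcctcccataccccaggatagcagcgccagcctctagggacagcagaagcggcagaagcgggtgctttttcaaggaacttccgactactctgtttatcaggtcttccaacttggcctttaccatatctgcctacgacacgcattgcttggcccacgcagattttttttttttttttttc
Il18rap: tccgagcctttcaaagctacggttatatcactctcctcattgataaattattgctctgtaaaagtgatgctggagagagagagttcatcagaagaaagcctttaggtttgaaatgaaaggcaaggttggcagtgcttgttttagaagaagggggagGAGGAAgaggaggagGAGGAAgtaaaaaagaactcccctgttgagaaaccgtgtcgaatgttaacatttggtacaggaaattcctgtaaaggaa
Il18: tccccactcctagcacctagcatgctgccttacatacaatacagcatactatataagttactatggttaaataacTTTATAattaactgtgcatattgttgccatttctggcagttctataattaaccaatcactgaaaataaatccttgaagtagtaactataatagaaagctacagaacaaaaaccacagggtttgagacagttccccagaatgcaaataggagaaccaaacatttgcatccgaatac
*Il1b* held a TATA box whose first base lies 31 bases before the start, and the letters searched, TATAAA, occurred in 12.4% of the 32851 RefSeq windows of this length. The *Il18* window held those letters only on the opposite strand, 175 bases before the start. *Il1rn* held a match to AP-1, searched as TGANTCA, 141 bases before the start (6.75% of windows). *Il18rap* held 2 matches to the PU.1 core, searched as GAGGAA, 94 and 79 bases before its start (23.3% of windows). *Il1r2* held none of the 5 motifs. The C/EBP letters, TTGCNNAA, occurred in 9.56% of windows. Those of NF-kB, GGGANNTNC, occurred in 12.5%, and neither was found in the 5 shown. Of the 2 other genes higher in G-MDSCs, *Il18bp* held a C/EBP match 49 bases before its start and *Il1rap* held none of the 5 motifs, so that no motif matched more than 1 of the 6 genes in these windows.

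*Il1b* (chr2:129364570-129371139, minus strand) encodes pro-IL-1β and was the most subset-dependent of the ligands. In M-MDSCs the 4 WT libraries held 186, 420, 257 and 202 CPM and the 4 *Nlrp3-/-* libraries 184, 195, 141 and 247 CPM. In G-MDSCs the WT libraries held 11752, 8840, 17508 and 12966 CPM and the *Nlrp3-/-* libraries 17960, 22049, 20638 and 27089 CPM. Every G-MDSC library thus lay far above every M-MDSC library, and within G-MDSCs every *Nlrp3-/-* library lay above every WT library, the closest pair being 17508 and 17960 CPM. *Il1b* was 47.9-fold higher in G-MDSCs than in M-MDSCs of WT mice (log2 fold change 5.58, SE 0.37, adjusted p = 1.91e-07, edgeR quasi-likelihood test) and 105.1-fold higher in *Nlrp3-/-* mice (log2 fold change 6.72, SE 0.25, adjusted p = 1.08e-10). In G-MDSCs it rose 1.62-fold without *Nlrp3* (log2 fold change 0.70, SE 0.22, adjusted p = 0.0378). In M-MDSCs the difference did not pass (log2 fold change -0.45, SE 0.26, adjusted p = 0.274), and without the M-MDSC WT replicate 2 it was -0.12 (adjusted p = 0.785). Of all counts in a G-MDSC library, *Il1b* took 0.637% to 1.33% in WT mice and 1.44% to 1.95% in those lacking *Nlrp3*, and its rank among all genes by count was between 5 and 7. In M-MDSC libraries it took 0.0185% to 0.0504% of the counts. Its antisense neighbor *Il1bos* had at most 14 counts in a library, so reads of the opposite strand carried little of the *Il1b* signal.

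*Il18* (chr9:50554827-50581840, plus strand), whose precursor is known to be held ready in resting macrophages, ran the other way between subsets. In M-MDSCs it stood at 32.3, 18.6, 28.9 and 36.7 CPM in WT and at 32.2, 39.9, 56.2 and 43.2 CPM in *Nlrp3-/-* libraries. In G-MDSCs it stood at 20.7, 15.9, 12.4 and 9.73 CPM in WT and at 20.8, 29.1, 36.7 and 36.7 CPM in *Nlrp3-/-* libraries. In M-MDSCs the genotypes overlapped, and in G-MDSCs they were separated only by the narrow step from 20.7 to 20.8 CPM, on 25 to 62 counts in WT and 90 to 177 counts in *Nlrp3-/-* libraries. *Il18* rose 1.98-fold in *Nlrp3-/-* G-MDSCs (log2 fold change 0.98, SE 0.28, adjusted p = 0.0265), while the value in M-MDSCs was 0.59 (SE 0.23, adjusted p = 0.112). It was lower in G-MDSCs than in M-MDSCs of WT mice (log2 fold change -0.97, adjusted p = 0.0106). In *Nlrp3-/-* mice the difference of -0.59 was at the edge of the threshold (adjusted p = 0.0460), was lost in 7 of 8 fits that left out 1 library (adjusted p = 0.0537 to 0.164), by DESeq2 (adjusted p = 0.0627) and in the model of all 16 libraries (adjusted p = 0.128), and kept without the M-MDSC *Nlrp3-/-* replicate 1 (adjusted p = 0.0232). With a correction for GC content and length the *Il18* difference between subsets was not called in either genotype (adjusted p = 0.0559 in WT and 0.209 in *Nlrp3-/-* mice). Several marker lists moved with the genotypes in G-MDSCs in the same direction as *Il18*. Without overlap between genotypes, these were the sums of red pulp macrophage and NK cell markers given above, of monocyte markers (1 of 6 tested called higher, none at 0), of dendritic cell markers (210 to 267 CPM in WT and 274 to 315 CPM in *Nlrp3-/-* libraries, 0 of 3 called) and of eosinophil markers (27.8 to 54.5 CPM and 55.4 to 62.0 CPM, 0 of 3 called). *Xcr1* of the dendritic cell list and *Epx* of the eosinophil list were at 0 in the *Nlrp3-/-* G-MDSCs. The part of these lists in this result was not tested.

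*Il1a* (chr2:129299610-129309972, minus strand), which encodes IL-1α, was near the limit of detection. Its counts ran from 0 to 22 in a library and its CPM from 0 to 3.09, and no ordering of the groups could be read from them. It had too few counts to be tested in 3 of the 4 pairwise comparisons. Between the subsets of *Nlrp3-/-* mice its log2 fold change was 0.48 (SE 0.93, adjusted p = 0.686).

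**Figure D2:**
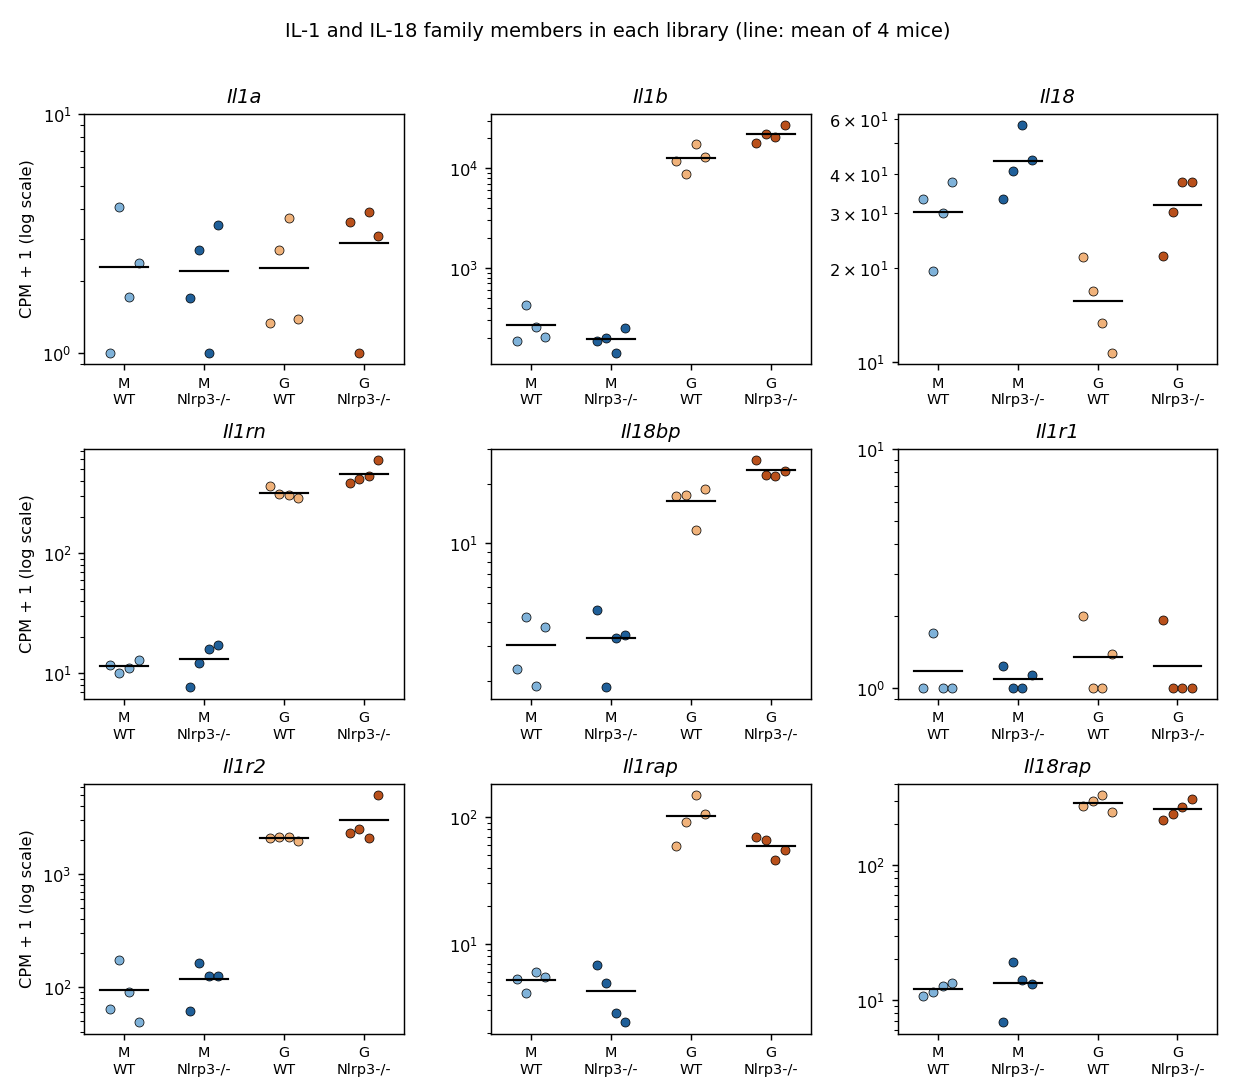
CPM + 1 (log scale) of the 9 genes in each of 16 libraries. Points are mice, in replicate order from left to right, and lines are means of 4. *Il1b*, *Il1rn*, *Il18bp*, *Il1r2*, *Il1rap* and *Il18rap* were higher in every G-MDSC library than in any M-MDSC library, *Il18* overlapped between subsets, and *Il1a* and *Il1r1* lay near 0 throughout.

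*Il1rn* (chr2:24336853-24351494, plus strand), the IL-1 receptor antagonist, had the subset pattern of its agonist. M-MDSCs held 10.8, 9.14, 9.99 and 11.99 CPM in WT and 6.63, 11.3, 15.0 and 16.1 CPM in *Nlrp3-/-* libraries. G-MDSCs held 359, 309, 301 and 284 CPM in WT and 378, 413, 433 and 591 CPM in *Nlrp3-/-* libraries. The subsets were far apart in both genotypes, by 30.2-fold in WT (log2 fold change 4.91, SE 0.18, adjusted p = 7.82e-09) and 34.4-fold in *Nlrp3-/-* mice (log2 fold change 5.10, SE 0.27, adjusted p = 3.08e-09). In G-MDSCs all 4 *Nlrp3-/-* libraries lay above all 4 WT libraries, yet the difference missed the threshold (log2 fold change 0.45, SE 0.16, adjusted p = 0.0741), and passed it with the GC and length correction (0.71, adjusted p = 0.0263). In M-MDSCs the log2 fold change was 0.25 (adjusted p = 0.590). Within a library, *Il1b* had 28.6 to 58.1 counts for each *Il1rn* count in G-MDSCs of WT mice and 45.8 to 53.4 where *Nlrp3* was lacking, ranges that overlapped. In M-MDSCs this ratio was 16.8 to 46.0 in WT and 9.35 to 27.8 in *Nlrp3-/-* libraries, and the highest of these was the M-MDSC WT replicate 2.

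*Il18bp* (chr7:102014885-102018690, minus strand), which encodes the soluble IL-18 binding protein, was scarce in M-MDSCs, at 1.30, 3.23, 0.892 and 2.74 CPM in WT and 3.61, 0.853, 2.30 and 2.44 CPM in *Nlrp3-/-* libraries. G-MDSCs held 16.4, 16.6, 10.7 and 17.9 CPM in WT and 25.4, 21.2, 20.9 and 22.3 CPM in *Nlrp3-/-* libraries. The subsets differed by 7.48-fold in WT (log2 fold change 2.90, SE 0.41, adjusted p = 7.76e-05) and by 8.72-fold in *Nlrp3-/-* mice (log2 fold change 3.12, SE 0.39, adjusted p = 1.1e-05). The *Nlrp3-/-* G-MDSC libraries again all lay above the WT ones, and the fitted difference did not pass (log2 fold change 0.47, SE 0.25, adjusted p = 0.205). *Il18bp* was thus higher in the subset where its ligand *Il18* was lower in the main fits, though *Il18* overlapped between subsets in both genotypes. Within G-MDSCs both genes had the higher mean in *Nlrp3-/-* mice, at 22.5 against 15.4 CPM for *Il18bp* and 30.8 against 14.7 CPM for *Il18*.

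Among the receptors, *Il1r1* (chr1:40225080-40317257, plus strand), the signaling chain for IL-1, was at the limit of detection. It had 0 to 5 counts in a library, reached 3 counts in 3 of 16 libraries and was at 0 in 10, so it entered no test. The decoy *Il1r2* (chr1:40074079-40125231, plus strand) was detected in every library. M-MDSCs held 62.6, 172, 89.0 and 47.3 CPM in WT and 60.1, 162, 125 and 123 CPM in *Nlrp3-/-* libraries. G-MDSCs held 2090, 2146, 2152 and 1960 CPM in WT and 2338, 2519, 2113 and 5050 CPM in *Nlrp3-/-* libraries. The WT G-MDSC libraries had a coefficient of variation of 4.27%, whereas 1 *Nlrp3-/-* library, replicate 4, held more than any other. *Il1r2* was 22.4-fold higher in G-MDSCs of WT (log2 fold change 4.48, SE 0.37, adjusted p = 1.18e-06) and 23.8-fold higher in those of *Nlrp3-/-* mice (log2 fold change 4.57, SE 0.34, adjusted p = 6.94e-08). Between genotypes its difference passed in neither G-MDSCs (log2 fold change 0.44, SE 0.24, adjusted p = 0.223, and 0.08 without replicate 4) nor M-MDSCs (0.34, SE 0.37, adjusted p = 0.571).

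*Il1rap* (chr16:26581704-26730117, plus strand), the accessory chain that IL-1R1 needs to signal and that the decoy also binds, was the one receptor gene with a call between genotypes. M-MDSCs held 4.27, 3.09, 4.99 and 4.45 CPM in WT and 5.82, 3.92, 1.88 and 1.41 CPM in *Nlrp3-/-* libraries. G-MDSCs held 58.4, 89.7, 149 and 104 CPM in WT and 68.8, 64.9, 45.0 and 54.3 CPM in *Nlrp3-/-* libraries. The genotypes overlapped in both subsets, in G-MDSCs through the WT replicate 1. In G-MDSCs *Il1rap* fell 1.83-fold without *Nlrp3* (log2 fold change -0.87, SE 0.25, adjusted p = 0.0284), but the call was lost with the GC and length correction (-0.43, adjusted p = 0.250), with scaling to library size only (-0.75, adjusted p = 0.0582) and in the model of all 16 libraries (-0.79, adjusted p = 0.0702). In M-MDSCs the log2 fold change was -0.30 (SE 0.47, adjusted p = 0.709). Between subsets *Il1rap* was 24.0-fold higher in G-MDSCs of WT (adjusted p = 2.25e-07) and higher by 4.00 on the log2 scale in those of *Nlrp3-/-* mice (adjusted p = 8.26e-07).

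*Il18rap* (chr1:40515362-40551705, plus strand), the accessory chain of the IL-18 receptor, was likewise a gene of the granulocytic subset. M-MDSCs held 9.66, 10.4, 11.6 and 12.3 CPM in WT and 5.82, 18.3, 12.95 and 12.1 CPM in *Nlrp3-/-* libraries. G-MDSCs held 273, 298, 329 and 244 CPM in WT and 215, 238, 270 and 310 CPM in *Nlrp3-/-* libraries. The genotypes overlapped in both subsets, with log2 fold changes of 0.17 (SE 0.30, adjusted p = 0.749) in M-MDSCs and -0.24 (SE 0.16, adjusted p = 0.328) in G-MDSCs. The subsets were 26.2-fold apart in WT (adjusted p = 7.82e-09) and 19.7-fold apart in *Nlrp3-/-* mice (adjusted p = 1.8e-08). *Il18r1*, the binding chain, followed the same order, with a log2 fold change between subsets of 2.70 in WT (adjusted p = 6.62e-06) and 1.49 in *Nlrp3-/-* mice (adjusted p = 0.0057). NK cells and T cells are known to carry both chains. T cell markers summed to 80.2 to 179 CPM in M-MDSCs and 166 to 271 CPM in G-MDSCs, with none of the 10 at 0 in any group, and NK cell markers to 57.6 to 205 CPM in M-MDSCs and 39.9 to 126 CPM in G-MDSCs. Their part in the *Il18rap* level was not tested.

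**Figure D3:**
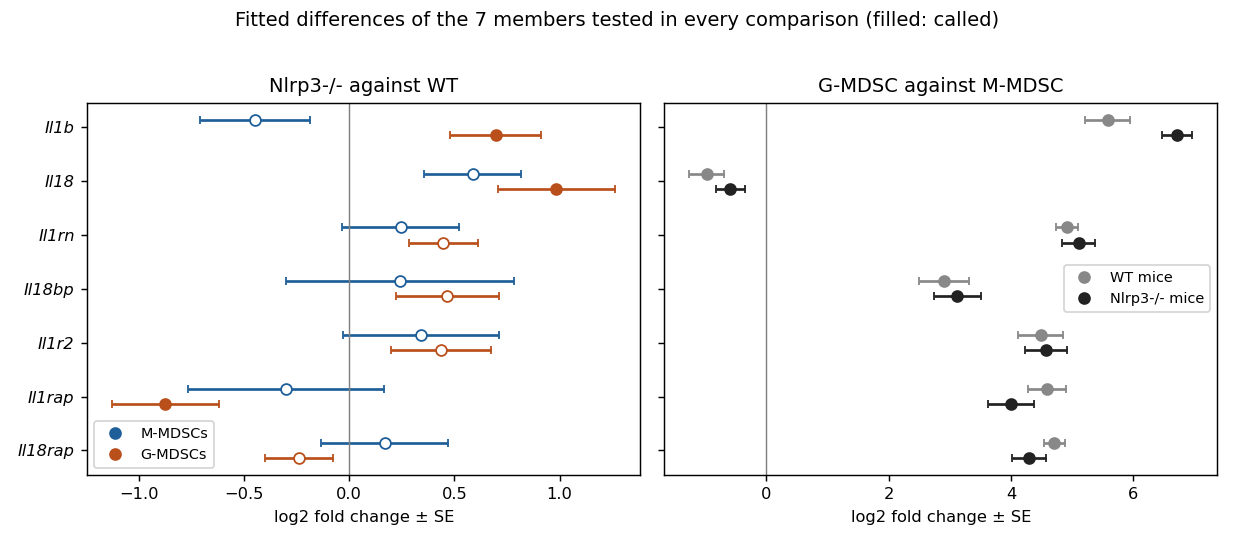
Log2 fold change ± SE of the 7 genes tested in every pairwise comparison, for *Nlrp3-/-* against WT (left) and G-MDSCs against M-MDSCs (right). Filled points passed the threshold. In G-MDSCs *Il1b* and *Il18* lay above 0 and *Il1rap* below it, no gene passed in M-MDSCs, and all but *Il18* were far higher in G-MDSCs.

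A gene was called at an adjusted p under 0.05 and a fold change above 1.5. Between genotypes in M-MDSCs 0 of the 7 family genes tested were called, where 10.6% of 9986 genes were. At an unadjusted p under 0.05 there was 1, *Il18*, where 3002 of the 9986 genes were. DESeq2 also called 0 of the 7. In G-MDSCs 3 of 7 were called, 2 higher and 1 lower, where 16.4% of 9273 genes were called, 4.7% higher and 11.7% lower. The 4 libraries of one genotype did not overlap those of the other for 4 of 7 genes in G-MDSCs, where this held for 24.4% of all genes tested, and for 0 of 7 in M-MDSCs, where it held for 19.3%. The median log2 fold change of the 7 genes was 0.24 in M-MDSCs and 0.45 in G-MDSCs, beside 0.07 and 0.03 over all genes tested. Between subsets 7 of 7 were called in WT, where 53.3% of 9739 genes were, and 7 of 8 in *Nlrp3-/-* mice, where 51% of 10071 genes were. Of these, 6 were higher in G-MDSCs in each genotype, against 26.3% and 23.7% of all genes. The subsets did not overlap for 6 of 7 genes in WT and 6 of 8 in *Nlrp3-/-* mice, with G-MDSCs above. Over all genes tested, 51.9% and 50.2% did not overlap between subsets, and 25.5% and 26.2% had G-MDSCs above. The median over the genes tested was 4.59 in WT and 4.15 in *Nlrp3-/-* mice, beside -0.05 and -0.12 over all genes. The interaction, that is, the genotype effect in G-MDSCs minus that in M-MDSCs, was fitted over the 16 libraries, and 0 of 8 family genes were called in it beside 0.028% of 10696 genes, and DESeq2 also called 0 of them. *Il1b* had the smallest p of the 8, with a difference of 1.25 on the log2 scale (SE 0.37, unadjusted p = 0.00324, adjusted p = 0.844). It was the only one under 0.05 before adjustment, where 480 of all 10696 genes were. This fit took the 16 libraries as independent, and with the mouse as a block 0 family genes were called as well. Without the M-MDSC WT replicate 2 the *Il1b* difference was 0.76 (adjusted p = 0.976). The subsets were therefore not shown to differ in the genotype effect. In bulk samples, fewer cells of a type and less RNA per cell cannot be told apart.

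The 3 calls in G-MDSCs depended on single libraries. *Il1b* was not called without WT replicate 1, 2 or 4 or *Nlrp3-/-* replicate 2, 3 or 4 (log2 fold change 0.56 to 0.73, adjusted p = 0.0673 to 0.11). *Il18* was not called without WT replicate 3 or 4 or *Nlrp3-/-* replicate 2, 3 or 4 (0.84 to 1.01, adjusted p = 0.0546 to 0.0762). *Il1rap* was not called without WT replicate 3 or 4 or *Nlrp3-/-* replicate 2, 3 or 4 (-0.94 to -0.60, adjusted p = 0.0566 to 0.0947). All 3 kept their direction in each of these fits. Among neutrophil markers in G-MDSCs, 1 of 7 tested passed between genotypes, *Cxcr2*, at 1852 to 3194 CPM in WT and 853 to 1543 CPM in *Nlrp3-/-* libraries. The sum of the list ran the other way, at 108967 to 137574 CPM in WT and 134904 to 168915 CPM in *Nlrp3-/-* libraries, and the median log2 fold change of its genes was 0.03. The part of these differences in the results for *Il1b*, *Il18* and *Il1rap* was not tested.

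Levels in M-MDSCs were set against those of G-MDSCs from the same mouse, beside those of neutrophil markers. *Il1b* in M-MDSCs was 1.47% to 4.75% of its G-MDSC level in WT and 0.681% to 1.03% in *Nlrp3-/-* mice. *Il1rn* was 1.75% to 4.22%, *Il1r2* 2.41% to 8.03% and *Il18rap* 2.71% to 7.68% over both genotypes. Neutrophil markers spanned this range: *Cxcr2* was 0.0209% to 0.19%, *Mmp9* 0.0548% to 0.561%, *S100a8* 1.05% to 5.42%, *Csf3r* 1.75% to 3.37% and *Mmp8* 11.03% to 21.3%. *S100a9* was 0.813% to 4.48% and *Retnlg* 0.202% to 5.83%. *Il1b*, *Il1rn*, *Il1r2* and *Il18rap* thus lay above *Cxcr2* and *Mmp9* in every mouse. With the genotypes pooled, their ranges overlapped those of *S100a8* and *Csf3r*. In *Nlrp3-/-* mice alone, *Il1b* lay below *S100a8* (1.05% to 1.63%) and *Csf3r* (1.75% to 3.37%). *Il1rn*, *Il1r2* and *Il18rap* lay above *S100a8* there. In WT mice *Il1b* lay below *Csf3r* (2.43% to 2.93%) except in the mouse of replicate 2, and *Il1rn* and *Il18rap* lay above *Csf3r*. The highest *Il1b* share, 4.75%, came from the mouse of the M-MDSC WT replicate 2, which also had the highest *S100a8* share. What part of the M-MDSC level came from other cells was not tested. *Il18* stood apart from all of these, at 117% to 377% of the G-MDSC level.

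**Figure D4:**
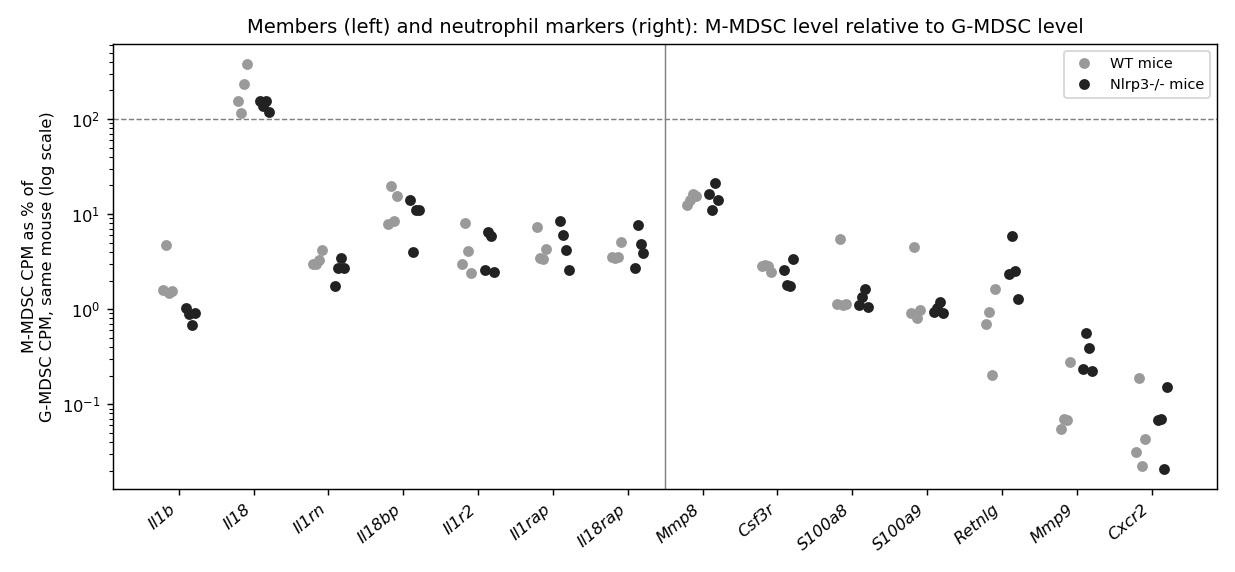
CPM in M-MDSCs as a percent of CPM in G-MDSCs of the same mouse (log scale), for 7 family genes and 7 neutrophil markers, with 4 WT and 4 *Nlrp3-/-* mice. The dashed line is 100%. *Il18* lay above it in all 8 mice, *Il1b* at 0.681% to 4.75%, and *Cxcr2* at or under 0.19%.

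The order of the groups by mean was the same for *Il1b*, *Il1rn*, *Il18bp* and *Il1r2* at the top: *Nlrp3-/-* G-MDSCs, then WT G-MDSCs, then the M-MDSC groups. These 2 G-MDSC groups did not overlap for *Il1b*, *Il1rn* and *Il18bp* and overlapped for *Il1r2*. For *Il1rap* and *Il18rap* the WT G-MDSCs came first and overlapped with the *Nlrp3-/-* G-MDSCs. The M-MDSC groups overlapped with each other for all 9 genes. Across the 16 libraries and 8704 genes, the genes whose centred log2 CPM differed least from *Il1b* were *Arg2*, *C5ar1* and *Mxd1* (root mean square differences of 0.39, 0.50 and 0.51), all 3 called higher in G-MDSCs of both genotypes and none called between genotypes. For *Il18* they were *Mtch1*, *1700021K19Rik* and *Rps14* (0.23 to 0.27). *Carns1* was among the nearest 3 of *Il1rn* (with *Adam8* and *Osgin1*), of *Il1r2* (with *Cd33* and *Grina*) and of *Il18rap* (with *Fam227a* and *Grina*). *Il18bp* was nearest to *Mmp8*, *Midn* and *Msra*, and *Il1rap* to *Ccr1*, *Igf1r* and *9830107B12Rik*.

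Among the genes that mature and release IL-1β and IL-18, most calls between genotypes were lower in *Nlrp3-/-* mice, as they were over all genes. Over all genes 7.1% were called lower and 3.51% higher in M-MDSCs, and 11.7% lower and 4.7% higher in G-MDSCs. Of 17 listed genes tested in M-MDSCs 0 were higher and 3 lower, and of 14 tested in G-MDSCs 0 were higher and 4 lower. *Nlrp3* itself was among them in both, and 10.6% and 16.4% of all genes were called. In G-MDSCs the GC and length correction left 2 lower, *Nlrp3* and *Casp4*, and called *Dfna5* higher (0.94, adjusted p = 0.00458). Their median log2 fold changes were -0.50 and -0.16. *Casp4*, the caspase of the non-canonical inflammasome, fell in both subsets. It stood at 57.6, 67.2, 69.9 and 75.4 CPM in WT and 29.9, 39.8, 31.1 and 24.9 CPM in *Nlrp3-/-* M-MDSCs (log2 fold change -1.08, SE 0.18, adjusted p = 0.0044), and at 88.1, 109, 121 and 98.1 CPM in WT and 55.9, 50.9, 53.5 and 50.1 CPM in *Nlrp3-/-* G-MDSCs (log2 fold change -1.07, SE 0.17, adjusted p = 0.000647). No library of one genotype reached the other in either subset, and the call was kept without each library in turn. *Nlrp1b*, another inflammasome sensor, fell in M-MDSCs (log2 fold change -1.53, adjusted p = 0.0415) and in G-MDSCs (-2.22, adjusted p = 0.0328), from mean levels of 18.2 and 10.5 CPM in WT. It was not called with the GC and length correction (adjusted p = 0.0631 and 0.0583), nor in M-MDSCs in the model of all 16 libraries (adjusted p = 0.0726), nor in 5 of 8 fits without 1 library in each subset: without M-MDSC WT replicate 1, 2 or 4 or *Nlrp3-/-* replicate 3 or 4 (adjusted p = 0.0732 to 0.119), and without G-MDSC WT replicate 1, 3 or 4 or *Nlrp3-/-* replicate 3 or 4 (adjusted p = 0.0501 to 0.09). *Nek7*, the kinase that NLRP3 binds on activation, fell in G-MDSCs (log2 fold change -0.99, adjusted p = 0.0328) and was -0.64 in M-MDSCs (adjusted p = 0.0596). The *Nek7* call was lost with the GC and length correction (-0.49, adjusted p = 0.299), with library size only (adjusted p = 0.0662) and without G-MDSC WT replicate 1 or 2 or *Nlrp3-/-* replicate 2 or 4 (adjusted p = 0.0582 to 0.0978). *Casp1* and the adaptor *Pycard* were not called in either subset (log2 fold changes of -0.20 and 0.07 in M-MDSCs and -0.08 and -0.19 in G-MDSCs). The pore-forming *Gsdmd* had log2 fold changes of 0.47 in M-MDSCs (adjusted p = 0.0472, under the fold threshold) and 0.41 in G-MDSCs (adjusted p = 0.135).

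Of the 23 receptor signaling genes, 1 was higher and 0 lower in M-MDSCs and 1 higher and 1 lower in G-MDSCs, with medians of -0.10 and 0.11. Over all genes tested, 10.6% were called in M-MDSCs and 16.4% in G-MDSCs, also for the lists that follow. *Rela*, a subunit of NF-kB, rose in both subsets (log2 fold change 0.77, adjusted p = 0.0221 in M-MDSCs and 0.82, adjusted p = 0.0079 in G-MDSCs). With the GC and length correction it was called in neither (0.45, adjusted p = 0.117 and 0.51, adjusted p = 0.0742), and in M-MDSCs it was not called without replicate 2, 3 or 4 of either genotype (0.66 to 0.78, adjusted p = 0.0518 to 0.0867). *Irak3*, a kinase-like inhibitor of IRAK signaling, fell in G-MDSCs from a mean of 77.4 to 39.6 CPM (log2 fold change -1.05, adjusted p = 0.0059), with a value of -0.95 in M-MDSCs (adjusted p = 0.0735). In M-MDSCs it was called lower by DESeq2 (adjusted p = 0.0243), by the edgeR exact test (0.0311) and in the model of all 16 libraries (0.0313). The same held without M-MDSC *Nlrp3-/-* replicate 1 (adjusted p = 0.00316), and other fits did not call it. *Myd88*, the adaptor shared by IL-1 and IL-18 receptors, was not called in either (-0.10 and 0.41). Of 12 and 11 tested genes known to be induced by IL-1, 0 were called in M-MDSCs and 1 in G-MDSCs. In M-MDSCs 1 had an unadjusted p under 0.05, *Cxcl2* (-1.68, adjusted p = 0.0644), where 3002 of all 9986 genes did. *Cxcl2* was called lower there with no filter (adjusted p = 0.0266), by the edgeR exact test (0.00854) and in the model of all 16 libraries (0.0477). It was also called without M-MDSC WT replicate 1 (0.04) or *Nlrp3-/-* replicate 1 (0.00447). The call in G-MDSCs was the mitochondrial dismutase *Sod2* (log2 fold change 0.71, adjusted p = 0.0457). It was not called without G-MDSC replicate 1, 2 or 4 of either genotype (0.59 to 0.74, adjusted p = 0.084 to 0.141). *Ptgs2* and *Zc3h12a* also had an unadjusted p under 0.05 in G-MDSCs and were not called. *Ptgs2* ran the other way and was called lower with no filter (-0.69, adjusted p = 0.038). Without G-MDSC *Nlrp3-/-* replicate 1, *Ptgs2* (-0.96, adjusted p = 0.0283) and *Tnfaip3* (-1.29, adjusted p = 0.0332) were called lower. Of the other family genes, *Il1f9*, the older symbol of *Il36g* that encodes IL-36γ, fell in G-MDSCs from 810, 399, 397 and 437 CPM in WT to 284, 323, 369 and 274 CPM in *Nlrp3-/-* libraries (log2 fold change -0.79, adjusted p = 0.0246). The call was lost with library size only (-0.66, adjusted p = 0.053), with the GC and length correction (-0.71, adjusted p = 0.0748), in the model of all 16 libraries (-0.71, adjusted p = 0.113), without WT replicate 1, whose 810 CPM was the highest (-0.49, under the fold threshold), and without *Nlrp3-/-* replicate 1, 2 or 4 (adjusted p = 0.059 to 0.0799). It was the 1 call among 4 tested there, and of 2 tested in M-MDSCs 0 were called. *Il18r1* missed the threshold in G-MDSCs but was called lower by DESeq2 (-0.81, adjusted p = 0.0389) and by the edgeR exact test (-0.83, adjusted p = 0.0402). The 2 other filters (adjusted p = 0.0451 and 0.0478) and fits without WT or *Nlrp3-/-* replicate 1 (0.0314 and 0.0182) also called it lower.

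**Figure D5:**
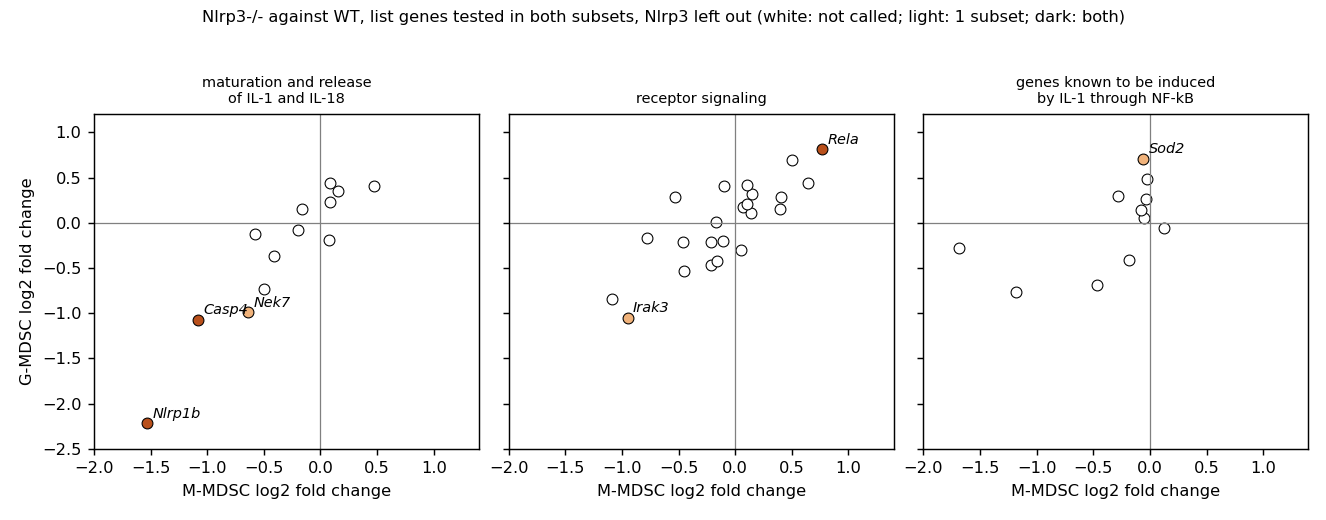
Log2 fold change of *Nlrp3-/-* against WT in M-MDSCs (horizontal) and G-MDSCs (vertical) for list genes tested in both subsets, 13 of maturation and release without *Nlrp3*, 23 of receptor signaling and 11 induced by IL-1. Points are white where no subset passed, light where 1 did and dark where both did; *Casp4*, *Nlrp1b* and *Rela* passed in both, of which only *Casp4* also did so with the GC and length correction.

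Between subsets these lists held calls in both directions. Over all genes tested, 26.3% were called higher and 27.1% lower in G-MDSCs of WT mice. In *Nlrp3-/-* mice these shares were 23.7% and 27.4%. Of 17 maturation genes 5 were higher and 8 lower in G-MDSCs of WT, and 6 were higher and 6 lower in those of *Nlrp3-/-* mice (4 and 9 in both with library size only). *Dfna5*, the older symbol of the gasdermin gene *Gsdme*, was higher in G-MDSCs (log2 fold change 4.199 in WT and 4.57 in *Nlrp3-/-* mice), as was *Ninj1*, which acts in the rupture of dying cells (1.64 and 1.78). *Pycard* was lower (-2.29 and -2.55), and *Prtn3*, a granule protease of neutrophil and monocyte precursors, was lower too (-4.85 and -5.29). *Nlrp3* was higher in WT G-MDSCs than in WT M-MDSCs by 2.18 on the log2 scale. Of 23 signaling genes 11 were higher and 3 lower in each genotype, but with scaling to library size only 3 were higher and 9 lower, a scaling that moved the median of all genes from -0.05 to -0.79 in WT and from -0.12 to -0.83 in *Nlrp3-/-* mice. *Myd88* (1.32 and 1.83) and *Map3k3* (1.43 and 1.53) were among those higher in G-MDSCs with the main scaling, and *Ikbkb* (-1.86 and -2.07) among those lower. Of the genes induced by IL-1, 5 of 13 were higher and 4 lower in G-MDSCs of WT, and 6 of 12 were higher and 2 lower in those of *Nlrp3-/-* mice. With library size only these became 3 and 5 in WT and 5 and 5 in *Nlrp3-/-* mice. *Cxcl2*, a neutrophil chemoattractant, was higher by 3.08 and 4.50, *Ptgs2* by 2.99 and 2.80, and *Nfkbiz* by 1.38 and 1.48. *Il1f9* had the largest difference of the 4 other family genes tested, with 510.7 CPM on average in WT G-MDSCs against 0 to 2.67 CPM in WT M-MDSCs. *Il1rl1*, the IL-33 receptor, was higher in G-MDSCs by 1.46 (adjusted p = 0.0157) and 2.25 (adjusted p = 0.0209), from 1.496 and 0.846 CPM on average in M-MDSCs. With *Il18r1*, these made 3 of 4 called higher in each genotype, against 2 higher and 1 lower in WT and 1 and 1 in *Nlrp3-/-* mice with library size only. *Sigirr*, an inhibitory receptor of the family, was the 1 called lower, in G-MDSCs of *Nlrp3-/-* mice (-1.04, adjusted p = 0.0495), with -0.68 in WT (adjusted p = 0.104).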

How the data were processed

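mRNA of 16 sorted MDSC libraries was sequenced from the 3′ end (QuantSeq). Per the submitters' processing notes and methods, the authors mapped reads to mm10 with HISAT2 2.1.0, counted them by strand with htseq-count and deposited raw counts per gene symbol without normalization. Molecular identifiers were not used here, so limits of detection cover counting error only. Libraries held 2295967 to 6079866 counts. None of the 24 pairs within a group were identical, and their chi-square per degree of freedom was 6.76 to 50.6.

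Counts were tested in R 4.3.3 with the quasi-likelihood test of edgeR 4.0.16 after filterByExpr and TMM, fitting only the 2 groups compared (all 16 libraries for the interaction). Adjusted p-values are Benjamini-Hochberg values over all genes tested, and a standard error is the log2 fold change divided by the square root of F. Log2 CPM used a prior count of 2. The code was tested on simulated data. Alternatives were other scalings, filters and tests (DESeq2 1.42.0 among them), a block, a correction for GC content and length by splines with 4 degrees of freedom over 24046 matched symbols, and leaving out each library. They were applied to the list genes after the data were seen. Locations are from GENCODE (mm10), and upstream windows from RefSeq.

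Per the labels, an M-MDSC and a G-MDSC library with the same genotype and number share a mouse, and their deviations correlated at 0.0971 to 0.397 in WT and 0.00821 to 0.382 in Nlrp3-/- mice. The mouse as a block changed no call among the 9 genes between subsets. Members and gene lists were chosen with earlier results of these data known. Named genes were the members, *Nlrp3*, list genes called between genotypes (at most 4 per list and comparison), the 3 of each list with the smallest p between subsets, and the 3 most alike of each member. *Casp1*, *Pycard* (between genotypes), *Gsdmd*, *Myd88* (between genotypes), *Cxcl2* (between genotypes), *Sigirr* and the neutrophil markers were added after their values were seen. The same holds for *Zc3h12a* and *Tnfaip3*, and for *Ptgs2* and *Il18r1* between genotypes.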

Additional observations from a re-analysis of the deposited data

Results flagged for a closer look

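In 36 groups of 4 libraries, each gene of the family was checked for a library far from the other 3, and 3 were found. For normally distributed values chance gives this in about 1 of 20 groups. *Il1r2* stood at 5050 CPM in the G-MDSC *Nlrp3-/-* replicate 4 against 2113 to 2519 CPM in the other 3 of its group. Without it the log2 fold change of *Il1r2* between genotypes in G-MDSCs went from 0.44 to 0.08. The others concern *Il1r1*, at 0.703 CPM in the M-MDSC WT replicate 2, on 5 counts, and at 0.924 CPM in the G-MDSC *Nlrp3-/-* replicate 1, on 4 counts, with the other 3 libraries of each group at 0. Any count above 0 is flagged in such a group, so the rate given for chance does not apply to *Il1r1*.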

How the results depend on the processing

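Of the family genes and *Nlrp3*, 411 of 431 values under other settings and 376 of 408 without 1 library kept their direction and side of the threshold. Between genotypes the replicate number as a block, which joins different mice (correlations of -0.452 to 0.018 in M-MDSCs and -0.263 to -0.0438 in G-MDSCs, with 0 of 4 numbers correlating best with its own), gave 425 called genes in M-MDSCs instead of 1060 and 985 in G-MDSCs instead of 1522, and 0 family genes in G-MDSCs instead of 3 (*Il1b* adjusted p = 0.0893, *Il18* 0.0876, *Il1rap* 0.105). The block also left uncalled *Rela* (adjusted p = 0.0807) and *Nlrp1b* (0.101) in M-MDSCs, and *Nlrp1b* (0.0767), *Nek7* (0.0585), *Il1f9* (0.0776) and *Sod2* (0.113) in G-MDSCs, but not *Casp4*, *Irak3* or, in G-MDSCs, *Rela*. GC and length correction gave 668 and 965 called genes, and both together 48 and 396, with 0 family genes in G-MDSCs. Both together also left uncalled *Casp4* in M-MDSCs (-0.89, adjusted p = 0.0779) and *Rela* in G-MDSCs (0.54, adjusted p = 0.148). In G-MDSCs *Casp4* (adjusted p = 0.0409) and *Irak3* (0.0225) were still called. The interaction gave 5 genes with no filter and 8 with DESeq2 instead of 3. The causes were not tested.

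Without 1 library, called genes ranged from 450 to 1783 in M-MDSCs (514 without M-MDSC WT replicate 2) and from 1104 to 1544 in G-MDSCs, family genes called in G-MDSCs from 0 to 3, and interaction genes from 2 to 5. Scaling to library size turned 351 higher and 709 lower calls into 684 and 569 in M-MDSCs, 436 and 1086 into 793 and 854 in G-MDSCs, 2557 and 2636 between WT subsets into 1166 and 5061, and 2383 and 2758 between *Nlrp3-/-* subsets into 1146 and 5034.

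Signs turned for values that were not called. Without 1 library *Il18bp* in M-MDSCs ranged from -0.13 (without *Nlrp3-/-* replicate 1; -0.02 without WT replicate 3) to 0.64, and *Il18rap* in M-MDSCs from -0.12 (without *Nlrp3-/-* replicate 2) to 0.38. *Il18rap* in G-MDSCs was 0.13 with the GC correction and 0.12 with the block added, and *Il1a* between *Nlrp3-/-* subsets was -0.21 with library size only. In the interaction *Il1r2* was -0.11 with block and GC correction. Without 1 library it ranged from -0.46 to 0.41, *Il1a* from -0.65 to 1.29 and *Il18bp* from -0.25 to 0.60, each lowest without M-MDSC WT replicate 2, and *Il1rn* from -0.085 (without M-MDSC *Nlrp3-/-* replicate 1) to 0.48. Depth limits *Il1a* and *Il1r1*, whose counts did not exceed 22 and 5.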
